A study of Caenorhabditis elegans with 19 samples.

Results

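The spectrin and spectraplakin genes of *Caenorhabditis elegans* were followed through RNA-seq of dissected gonads: *spc-1*, *unc-70*, *sma-1* and *vab-10*, which are 4 of the 19985 protein-coding genes in the tables. They were chosen by name, together with the earlier result on these same libraries that *vab-10* and *sma-1* fell when a ribosome biogenesis protein was depleted. Auxin against ethanol within a strain is therefore a description for these genes: no p-value is given for them there, and counts of those past the threshold support nothing. Tests with p-values are given for contrasts between strains.

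Spectrin is a long, flexible tetramer of alpha and beta chains that crosslinks short actin filaments into a net under the plasma membrane, where ankyrin and band 4.1 proteins tie it to membrane proteins. The worm has an alpha chain, SPC-1, which pairs either with the beta chain UNC-70 or with the large beta-heavy chain SMA-1. UNC-70 is known for protecting axons from mechanical strain, and SMA-1 for the elongation of the embryo from the apical face of its epithelia. VAB-10, a spectraplakin, joins the spectrin-repeat rod to plakin and microtubule-binding parts through alternative transcripts. Its isoforms attach the epidermis to muscle at hemidesmosomes and act in nuclear movement in the migrating distal tip cell of the gonad.

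In all 3 strains the protein under study carried a degron tag, by which auxin (indole-3-acetic acid, IAA) marks a protein for destruction. Synchronized late L4 hermaphrodites were kept for 18 h on 1 mM auxin or on an equal volume of ethanol, and were young adults at dissection. Strain ESC332 served to deplete RPOA-2, which belongs to RNA polymerase I, with 4 auxin and 4 ethanol libraries. Strain ESC422 served for GRWD-1 and strain ESC420 for TSR-2, both ribosome assembly chaperones, with 3 auxin and 3 ethanol libraries for GRWD-1 and 3 auxin and 2 ethanol libraries for TSR-2. Each of the 19 libraries came from 20 gonads. Controls lacking the degron but given auxin are not among the libraries, and the driver of the TIR1 ligase is not named in the labels, so an effect of auxin itself and the loss of the protein cannot be told apart.

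Whole-number counts per gene served for RPOA-2 and GRWD-1, and fractional counts, in which reads with several possible origins are shared out, for TSR-2. Protein-coding totals were 2422766 to 8012912 in RPOA-2 auxin libraries, against 1582308 to 4336988 in RPOA-2 ethanol libraries, and 4229644 to 8526501 in GRWD-1 auxin libraries, against 2031037 to 2993987 in GRWD-1 ethanol libraries. The auxin library was the deeper in each numbered pair of these strains, and the part of depth in the results was not tested. TSR-2 auxin replicate 3 stood apart with 43631 protein-coding counts, so that 3 counts were worth 59.1 CPM, counts scaled to a common library size, there, against 0.341 to 1.96 CPM in the libraries of the whole-number table. The log2 changes of the 4 genes in TSR-2 are given with and without it. Other TSR-2 values, the interactions with TSR-2 among them, include it unless stated. Markers of germ cells summed to 2843 CPM or more in every RPOA-2 and GRWD-1 library and markers of oocytes to 2249 CPM or more, whereas the markers of sperm summed to 20.2 CPM or less there. The transcript of the tagged gene does not check the labels, because the degron acts on protein: *grwd-1* averaged 431 ± 55.9 CPM in auxin and 345 ± 68.7 CPM in ethanol libraries of its strain (SD, n = 3 each).

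The alpha chain gene, *spc-1* (WBGene00004951), lies on chromosome X at 3117439 to 3127079 on the minus strand of WBcel235, with 7822 exon bases. In the RPOA-2 strain it had 131, 70.5, 109 and 108 CPM in auxin replicates 1 to 4, against 144, 187, 190 and 199 CPM in ethanol replicates 1 to 4. Every auxin library lay below every ethanol library, with auxin replicate 2 lowest. The group means were 104 ± 24.9 CPM in auxin and 180 ± 24.6 CPM in ethanol (SD, n = 4 each), a log2 change of -0.80 ± 0.175 (SE). With GRWD-1 the values of *spc-1* were 94.8, 58.8 and 137 CPM in auxin libraries, against 131, 156 and 148 CPM in ethanol libraries. These groups overlapped, since auxin replicate 3 exceeded ethanol replicate 1, and the log2 change was -0.62 ± 0.248. In the TSR-2 strain it had 66.4 and 82.2 CPM in auxin replicates 1 and 2, against 132 and 136 CPM in ethanol libraries. A single count was present in the shallow auxin replicate 3, worth 19.7 CPM. The log2 change was -0.94 ± 0.273 with all 3 auxin libraries and -0.84 ± 0.219 without that replicate. *spc-1* thus had the smallest change of the 4 genes in TSR-2 as well as in GRWD-1.

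The beta chain gene, *unc-70* (WBGene00006803), lies on chromosome V at 6881338 to 6891839 on the plus strand, with 8643 exon bases, of which 266 are shared with genes that do not code for protein. Its values in the RPOA-2 strain were 97.2, 56.6, 98.5 and 86.6 CPM in auxin libraries, against 112, 161, 145 and 132 CPM in ethanol libraries. The groups did not overlap, and the log2 change of -0.72 ± 0.185 was the smallest of the 4 genes in that strain. The GRWD-1 strain had 50.0, 29.5 and 80.9 CPM in auxin libraries and 110, 112 and 95.3 CPM in ethanol libraries. Auxin replicate 2 was again lowest, the groups did not overlap, and the log2 change was -1.03 ± 0.291. In the TSR-2 strain *unc-70* had 28.2 and 41.6 CPM in auxin replicates 1 and 2, against 128 and 112 CPM in ethanol libraries, and 1 count in auxin replicate 3. The log2 change there was -1.81 ± 0.295 with all auxin libraries and -1.76 ± 0.256 without replicate 3, the lowest of the 4 genes in that strain both ways.

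The beta-heavy chain gene, *sma-1* (WBGene00004855), lies on chromosome V at 11899449 to 11916623 on the plus strand, with 13098 exon bases. RPOA-2 libraries had 258, 127, 192 and 302 CPM in auxin libraries, against 411, 412, 471 and 599.6 CPM in ethanol libraries. All auxin libraries lay below all ethanol libraries, at means of 220 ± 76.5 CPM and 474 ± 88.5 CPM (SD, n = 4 each), and the log2 change was -1.12 ± 0.227. Values in the GRWD-1 strain were 240, 178 and 311 CPM in auxin libraries, against 421, 528 and 389 CPM in ethanol libraries. Again the groups did not overlap, and the log2 change was -0.91 ± 0.205. In the TSR-2 strain it had 103 and 209 CPM in auxin replicates 1 and 2, against 375 and 326 CPM in ethanol libraries. No count fell on *sma-1* in auxin replicate 3, which at that depth allows a level of up to 59.1 CPM. The log2 change was -1.32 ± 0.308 with that library and -1.16 ± 0.292 without it.

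The spectraplakin gene, *vab-10* (WBGene00006876), lies on chromosome I at 11747424 to 11804991 on the minus strand. Its 14 annotated transcripts, of 4725 to 15218 bases, together cover 24099 exon bases, 28 of them shared with other genes. Counts were given per gene, so the plakin and microtubule-binding isoforms were not separated. Its level in the RPOA-2 strain was 709, 378, 396 and 731 CPM in auxin libraries, against 1044, 1023, 1002 and 1368 CPM in ethanol libraries. The groups did not overlap, and the log2 change was -1.01 ± 0.224. GRWD-1 libraries had 443, 502 and 479 CPM in auxin libraries, against 1307, 2116 and 1254 CPM in ethanol libraries. The auxin libraries lay close together, at 475 ± 29.3 CPM, while ethanol replicate 2 stood well above the other ethanol libraries, whose group mean was 1559 ± 483 CPM (SD, n = 3 each). The log2 change was -1.74 ± 0.202, the lowest of the 4 genes in this strain. In the TSR-2 strain it had 241 and 445 CPM in auxin replicates 1 and 2, against 1127 and 996 CPM in ethanol libraries, and the 10 counts of auxin replicate 3 came to 197 CPM. The log2 change was -1.74 ± 0.260 with replicate 3 and -1.63 ± 0.294 without it. The tissue was measured in bulk, so fewer cells of a type and less RNA per cell cannot be told apart.

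**Figure D1:**
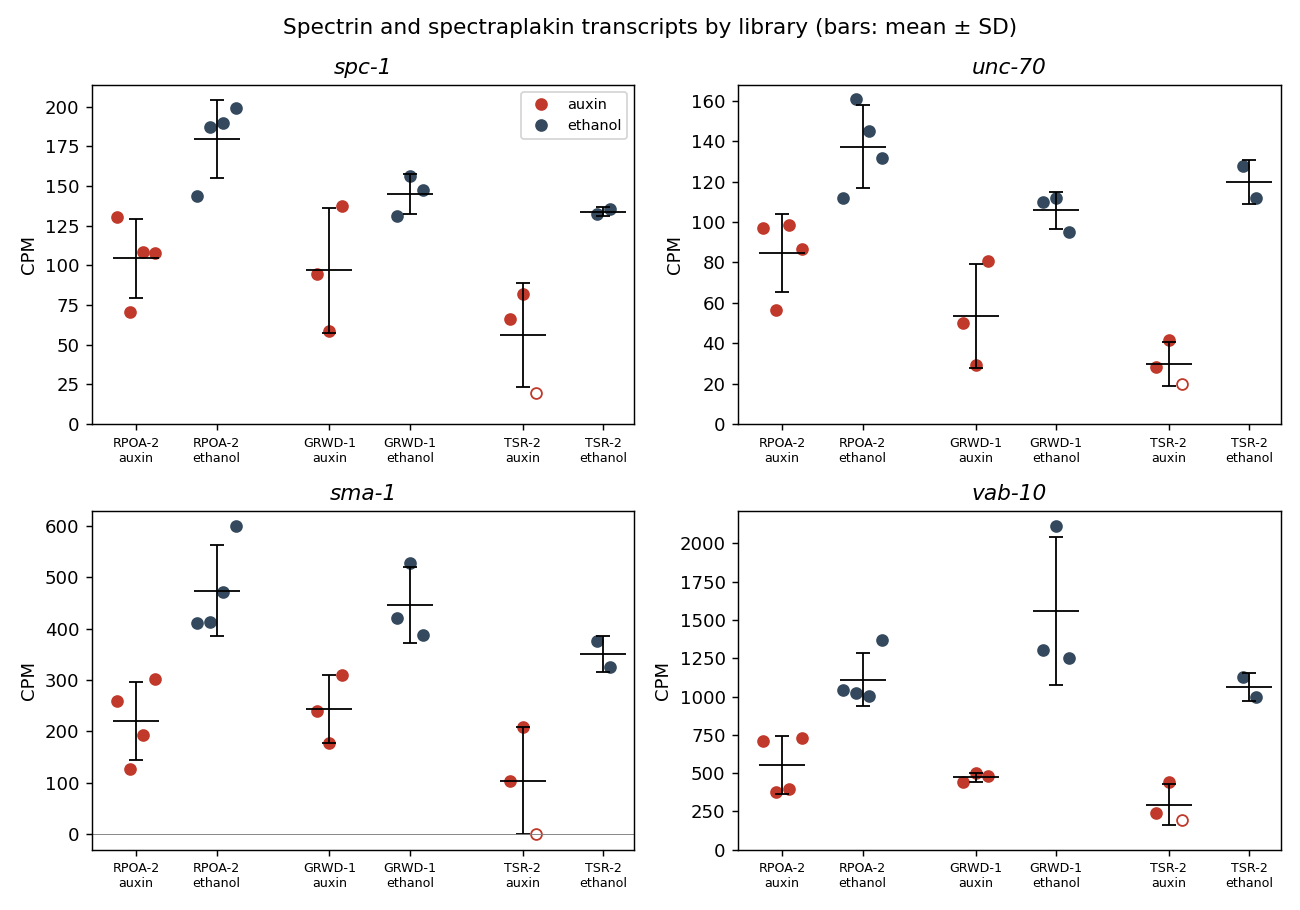
Level of each gene in CPM (vertical axis) in every library, by strain and treatment; red points are auxin and dark points ethanol libraries, and bars show the mean ± SD of all libraries of a group. The open circle is the shallow TSR-2 auxin replicate 3. Auxin libraries lie below ethanol libraries in every panel except for *spc-1* in the GRWD-1 strain, where auxin replicate 3 at 137 CPM exceeds ethanol replicate 1 at 131 CPM.

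Of all genes tested, 3.81% in the RPOA-2 strain, 9.9% in the GRWD-1 strain and 19.6% in the TSR-2 strain had every auxin library below every ethanol library. All 4 genes did so in the RPOA-2 and TSR-2 strains, and 3 of the 4 in the GRWD-1 strain. Without TSR-2 auxin replicate 3 the background in that strain was 23.7%. Same-numbered auxin and ethanol libraries varied together in the RPOA-2 and GRWD-1 strains, and the auxin library was the lower in all 28 of these comparisons of a gene within a pair. Falls in these libraries entered the choice of the genes, so this count is a description. The share of all genes lower in every pair is not given. The ratio of auxin to ethanol within a pair was 0.376 to 0.931 for *spc-1*, 0.263 to 0.868 for *unc-70*, 0.309 to 0.799 for *sma-1* and 0.237 to 0.679 for *vab-10*. In both strains the pair of replicate 2 had the lowest ratio for each of the 4 genes. Auxin replicate 2 was also the deepest library of its strain, with 8012912 protein-coding counts in RPOA-2 and 8526501 in GRWD-1.

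By edgeR's quasi-likelihood test with Benjamini-Hochberg adjustment, 1.22% of 7881 genes in the RPOA-2 strain passed an adjusted p under 0.05 in the lower direction, among them *spc-1*, *sma-1* and *vab-10*. For GRWD-1 1.48% of 6948 genes did, among them *sma-1* and *vab-10*, and in the TSR-2 strain 2.02% of 6396 genes did, among them *unc-70*, *sma-1* and *vab-10*. These contrasts entered the choice of the genes, so the counts are no test of them and nothing is read from them. They also moved with the libraries and the fit used. The count was 4 in GRWD-1 with the replicate pair as a block. For RPOA-2 it was 0 without any library other than ethanol replicate 2 or auxin replicate 4, and 2 without either of those. For GRWD-1 it was 1, *vab-10*, without any of the ethanol libraries or without auxin replicate 1 or 2, and for TSR-2 it was 1, *unc-70*, without auxin replicate 3. The log2 changes themselves moved less over the same alternatives, between -1.33 and -0.96 for *sma-1* and between -1.20 and -0.86 for *vab-10* in RPOA-2, and between -1.88 and -1.45 for *vab-10* in GRWD-1.

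The position of the genes among all genes tested differed by strain. For RPOA-2, 3.30% of tested genes had a lower log2 change than *sma-1*, and 4.59% had a lower one than *vab-10*. For GRWD-1, 0.748% had a lower log2 change than *vab-10* and 6.09% a lower one than *sma-1*. For TSR-2, 2.77% had a lower log2 change than *unc-70* and 11.3% a lower one than *spc-1*. The log2 change was below 0 in all 3 strains for each of the 4 genes, as it was for 24.3% of the 6145 genes tested in every strain. The 4 RPOA-2 pairs fall into 2 series of library numbers, replicates 1 to 3 and replicate 4. In replicates 1 to 3 alone the log2 changes were -0.81 for *spc-1*, -0.80 for *unc-70*, -1.22 for *sma-1* and -1.10 for *vab-10*. In the pair of replicate 4 the ratios of auxin to ethanol were 0.542, 0.657, 0.504 and 0.535 in the same order of genes, so every value was lower with auxin in both series.

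**Figure D2:**
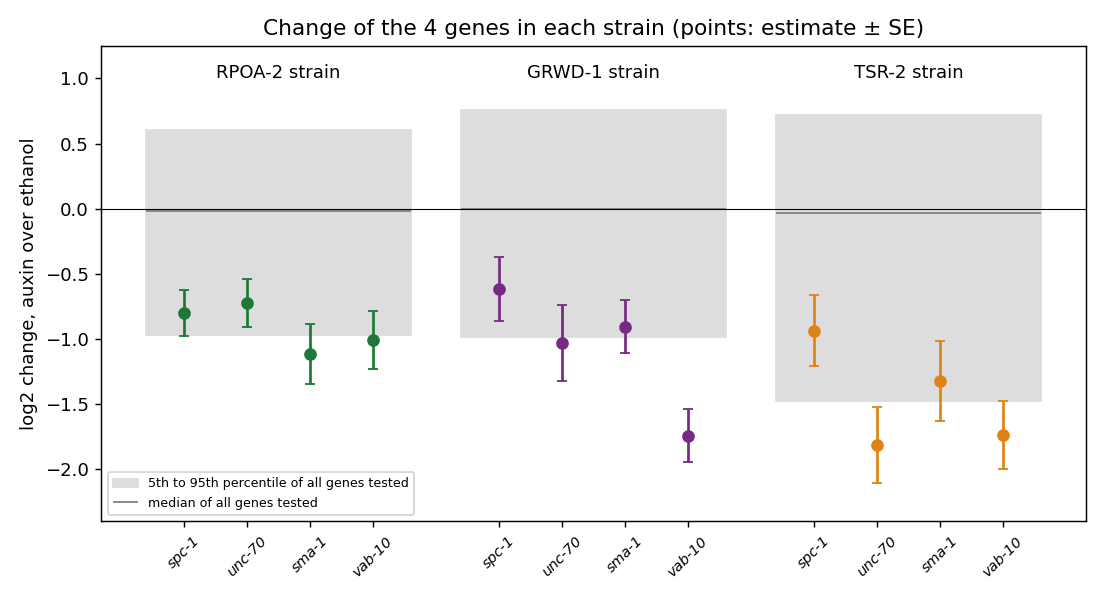
Log2 change of auxin over ethanol (vertical axis) for the 4 genes in each strain, as estimate ± SE from edgeR; the grey band spans the 5th to the 95th percentile of all genes tested and the grey line their median. Below the band lie *vab-10* in each strain, *sma-1* in RPOA-2 at -1.12, and *unc-70* in GRWD-1 at -1.03 and in TSR-2 at -1.81, while the other points, with all those of *spc-1*, lie inside it.

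Whether the response of a gene differed between strains was tested as an interaction, which the choice of genes did not use. The *vab-10* change was less negative after RPOA-2 depletion than after GRWD-1 depletion by 0.71 ± 0.339 on the log2 scale, with an adjusted p of 1.00 by edgeR's quasi-likelihood test. The same difference was -0.20 ± 0.331 for *spc-1*, 0.29 ± 0.365 for *unc-70* and -0.23 ± 0.347 for *sma-1*. Against TSR-2, the *unc-70* change was less negative after RPOA-2 depletion by 1.09 ± 0.452 (edgeR adjusted p = 0.878) and after GRWD-1 depletion by 0.82 ± 0.456 (edgeR adjusted p = 0.879). The median difference of all tested genes in these contrasts with TSR-2 was itself 0.28 and 0.27. None of the 4 genes passed in any of the 3 interactions. In the RPOA-2 and GRWD-1 contrast 0.0105% of 9495 genes passed, with 438 at an unadjusted p under 0.05, and in the contrasts with TSR-2 none of 11851 genes passed, with 586 and 601 at an unadjusted p under 0.05. DESeq2 called 21, 20 and 35 genes in the 3 contrasts, with none of these 4 among them. The standard errors of these 12 differences were 0.331 to 0.523, so differences of this order were not detectable. These fits left out the pairing of same-numbered libraries.

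The levels in undepleted gonads were compared per length of exon, so that long and short genes share a scale. In ethanol libraries of the RPOA-2 strain *vab-10* averaged 46.0 ± 7.18, *sma-1* 36.2 ± 6.75, *spc-1* 23.0 ± 3.14 and *unc-70* 15.9 ± 2.40 CPM per kb (SD, n = 4). The order was the same in the GRWD-1 strain, at 64.7 ± 20.0, 34.0 ± 5.59, 18.5 ± 1.61 and 12.2 ± 1.06 CPM per kb (SD, n = 3), and in the TSR-2 strain, at 44.1, 26.8, 17.1 and 13.9 CPM per kb (n = 2). Among neighbours in this order, ranges overlapped in the RPOA-2 strain only, where *sma-1* reached 45.8 and *vab-10* began at 41.6 CPM per kb, and *unc-70* reached 18.6 and *spc-1* began at 18.4 CPM per kb. Of the 19 libraries, 16 kept this order, the exceptions being GRWD-1 auxin replicate 3 and TSR-2 auxin replicates 1 and 3. In the RPOA-2 ethanol libraries 65.5% of tested genes lay below *vab-10* per length, 57.9% below *sma-1*, 45.8% below *spc-1* and 38.9% below *unc-70*. The length of *vab-10* is uncertain because its transcripts differ. Divided by the longest transcript instead of all its exons, its ethanol level was 72.9 CPM per kb in the RPOA-2 strain.

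The ethanol levels were also tested between strains. In GRWD-1 ethanol libraries *spc-1* was lower than in RPOA-2 ethanol libraries by a log2 difference of -0.37 ± 0.141 (edgeR adjusted p = 0.273), *unc-70* by -0.44 ± 0.171 (edgeR adjusted p = 0.278) and *sma-1* by -0.14 ± 0.155 (edgeR adjusted p = 0.701). The level of *vab-10* differed by 0.43 ± 0.193 in the other direction (edgeR adjusted p = 0.338). None passed the adjusted threshold, which 0.0132% of 7549 genes did, while 1102 genes including 3 of these 4 had an unadjusted p under 0.05. Strain and library series cannot be told apart there, except for RPOA-2 replicate 4. Between GRWD-1 and TSR-2 ethanol libraries, which share a library series, the log2 differences were 0.05 ± 0.176 for *spc-1*, -0.22 ± 0.188 for *unc-70*, 0.29 ± 0.209 for *sma-1* and 0.51 ± 0.260 for *vab-10*. The edgeR adjusted p was 1.00 for each, and none of 7484 genes passed, with 172 at an unadjusted p under 0.05.

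Because the alpha chain pairs with either beta chain, the ratio of *spc-1* to the sum of *unc-70* and *sma-1*, each per kb, was followed. It was 0.511 ± 0.0634 in auxin and 0.442 ± 0.0316 in ethanol libraries of the RPOA-2 strain (SD, n = 4 each), and 0.492 ± 0.0456 in auxin and 0.404 ± 0.0516 in ethanol libraries of the GRWD-1 strain (SD, n = 3 each). In the TSR-2 strain it was 0.635 ± 0.182 in auxin libraries without replicate 3 and 0.424 ± 0.0490 in ethanol libraries (SD, n = 2 each). Over these 18 libraries the ratio ran between 0.374 and 0.763, a narrower spread in proportion than that of any of the 3 chains alone. All 3 chains had lower means with auxin, and a ratio takes out a shared fall. The narrower spread is therefore no measure of how the chains are matched. The auxin mean was the higher in each strain, but the auxin and ethanol libraries overlapped in the RPOA-2 and GRWD-1 strains. Within same-numbered pairs of these strains the auxin library had the higher ratio in 6 of 7. The fall of *sma-1* entered the choice of the genes, so this count is a description.

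The ratio of *sma-1* to *unc-70* per kb moved in no common direction across strains. It was 1.71 ± 0.440 in auxin and 2.32 ± 0.549 in ethanol libraries of RPOA-2, 3.23 ± 0.731 in auxin and 2.77 ± 0.303 in ethanol libraries of GRWD-1, and 2.86 ± 0.645 in auxin and 1.93 ± 0.0152 in ethanol libraries of TSR-2. *vab-10* per *spc-1* was lower with auxin in each strain, at 1.72 ± 0.417 against 2.02 ± 0.322 with ethanol in RPOA-2, 1.81 ± 0.856 against 3.46 ± 0.844 with ethanol in GRWD-1, and 1.47 ± 0.408 against 2.57 ± 0.273 with ethanol in TSR-2. In RPOA-2 and GRWD-1 the groups overlapped for this ratio, and within same-numbered pairs the auxin library was the lower in 7 of 7. The fall of *vab-10* entered the choice of the genes, so this count too is a description. The pairs differed in size, with 1.74 in auxin against 1.77 in ethanol in RPOA-2 replicate 2, and 1.52 in auxin against 3.23 in ethanol in GRWD-1 replicate 1.

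**Figure D3:**
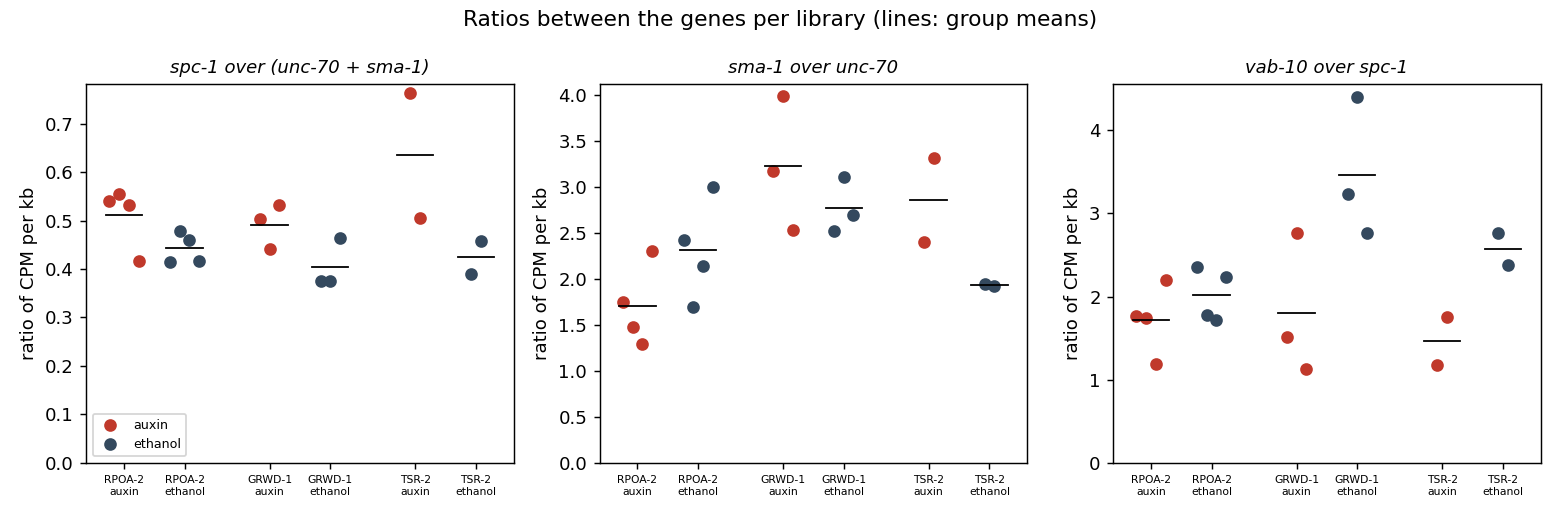
Ratios between the genes, each in CPM per kb of exon, in every library (points; red auxin, dark ethanol) with group means (lines), without TSR-2 auxin replicate 3. The ratio of the alpha chain gene to the 2 beta chain genes stays between 0.374 and 0.763, while *vab-10* per *spc-1* is below its ethanol mean in the auxin mean of each strain.

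The wider network was read from 52 other genes in 6 lists of spectrin-repeat relatives, membrane skeleton partners, apical junction proteins, hemidesmosome partners, dystrophin-associated proteins and the actomyosin cortex. Among RPOA-2 libraries 3 of 49 tested genes passed in the lower direction and none in the higher, in the GRWD-1 strain 2 of 48, and in the TSR-2 strain 5 of 40. Of all tested genes 1.22%, 1.48% and 2.02% passed in the lower direction and 2.56%, 1.21% and 0.532% in the higher. Their median log2 change was -0.14, -0.10 and -0.23, where all tested genes had -0.015, -0.0017 and -0.034. With the replicate pair as a block 7 of the list genes passed in the GRWD-1 strain, which added *anc-1*, *erm-1*, *cyk-1*, *rho-1* and *mel-11* to *fln-1* and *dys-1*, and 2 passed in the RPOA-2 strain, *dlg-1* being lost. Without TSR-2 auxin replicate 3, or without auxin replicate 1, none passed in that strain. For RPOA-2 none passed without ethanol replicate 3 or 4 or without auxin replicate 1, 2 or 3, and 1 passed without ethanol replicate 1 or auxin replicate 4. For GRWD-1 *fln-1* was the only one to pass with any library left out.

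Filamin, *fln-1*, an actin crosslinker, and dystrophin, *dys-1*, a member of the spectrin superfamily that ties actin to a membrane glycoprotein complex, fell in all 3 strains. Both are long, with 8006 and 11508 exon bases. Of all tested genes with 6 kb or more of exon, 6.33% in RPOA-2, 5.39% in GRWD-1 and 13.2% in TSR-2 passed in the lower direction. The other list genes that passed, *dlg-1*, *jac-1* and *dgn-1*, have 3780, 4159 and 2585 exon bases. The part of length was not tested. *fln-1* averaged 1004 ± 154 CPM in auxin and 1781 ± 460 CPM in ethanol libraries of RPOA-2 (log2 change -0.83 ± 0.180, edgeR adjusted p = 0.032). It averaged 1047 ± 222 CPM in auxin and 2593 ± 544 CPM in ethanol libraries of GRWD-1 (log2 change -1.34 ± 0.202, edgeR adjusted p = 0.0074). In TSR-2 its means were 1049 ± 389 CPM in auxin and 2565 ± 544 CPM in ethanol libraries (edgeR adjusted p = 0.0058). *dys-1* averaged 40.6 ± 4.71 CPM in auxin and 74.9 ± 20.7 CPM in ethanol libraries of RPOA-2 (edgeR adjusted p = 0.039), and 25.1 ± 9.61 CPM in auxin and 60.3 ± 9.38 CPM in ethanol libraries of GRWD-1 (edgeR adjusted p = 0.047). In TSR-2 it averaged 14.4 ± 15.3 CPM in auxin, with 0 counts in replicate 3, and 57.0 ± 5.13 CPM in ethanol libraries (edgeR adjusted p = 0.039).

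The junction scaffold *dlg-1* fell in RPOA-2, at 16.6 CPM in auxin and 36.3 CPM in ethanol libraries (log2 change -1.16, edgeR adjusted p = 0.039), and in TSR-2 (log2 change -2.05, edgeR adjusted p = 0.029). In TSR-2 its highest auxin value, 39.4 CPM, lay above its lowest ethanol value of 31.2 CPM, and it came from the shallow replicate 3. For GRWD-1 its log2 change was -0.95 with an edgeR adjusted p of 0.320. In TSR-2, *jac-1*, which encodes a catenin of the p120 family, fell to 4.78 CPM in auxin, against 28.8 CPM in ethanol libraries (edgeR adjusted p = 0.036). The dystroglycan gene *dgn-1* fell to 24.1 CPM in auxin, against 67.8 CPM in ethanol libraries of that strain (edgeR adjusted p = 0.032). Both auxin means include the shallow replicate 3, and the lowest auxin value of *jac-1* was 0 CPM.

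Without the block, none of 10, 10 and 7 tested membrane skeleton partners, which bind or stabilize the spectrin and actin net, passed in RPOA-2, GRWD-1 and TSR-2, with median log2 changes of -0.36, 0.07 and -0.40. The ankyrin gene *unc-44* had log2 changes of -0.40, 0.13 and -0.99, and the tropomodulin gene *unc-94* -0.10, 0.02 and 0.03. Of the hemidesmosome partners, which act with VAB-10 in the epidermis, none of 6, 6 and 3 tested genes passed, with medians of -1.12, -0.46 and -1.20. Their linker *pat-12* had log2 changes of -0.92, -0.63 and -1.55. Of the 17 genes of the actomyosin cortex, *fln-1* was the only one to pass without the block, and the median was 0.03, 0.11 and 0.01. The nuclear anchor *anc-1*, a giant spectrin-repeat protein, had log2 changes of -0.52, -0.57 and -1.13 and passed in none of the strains without the block.

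**Figure D4:**
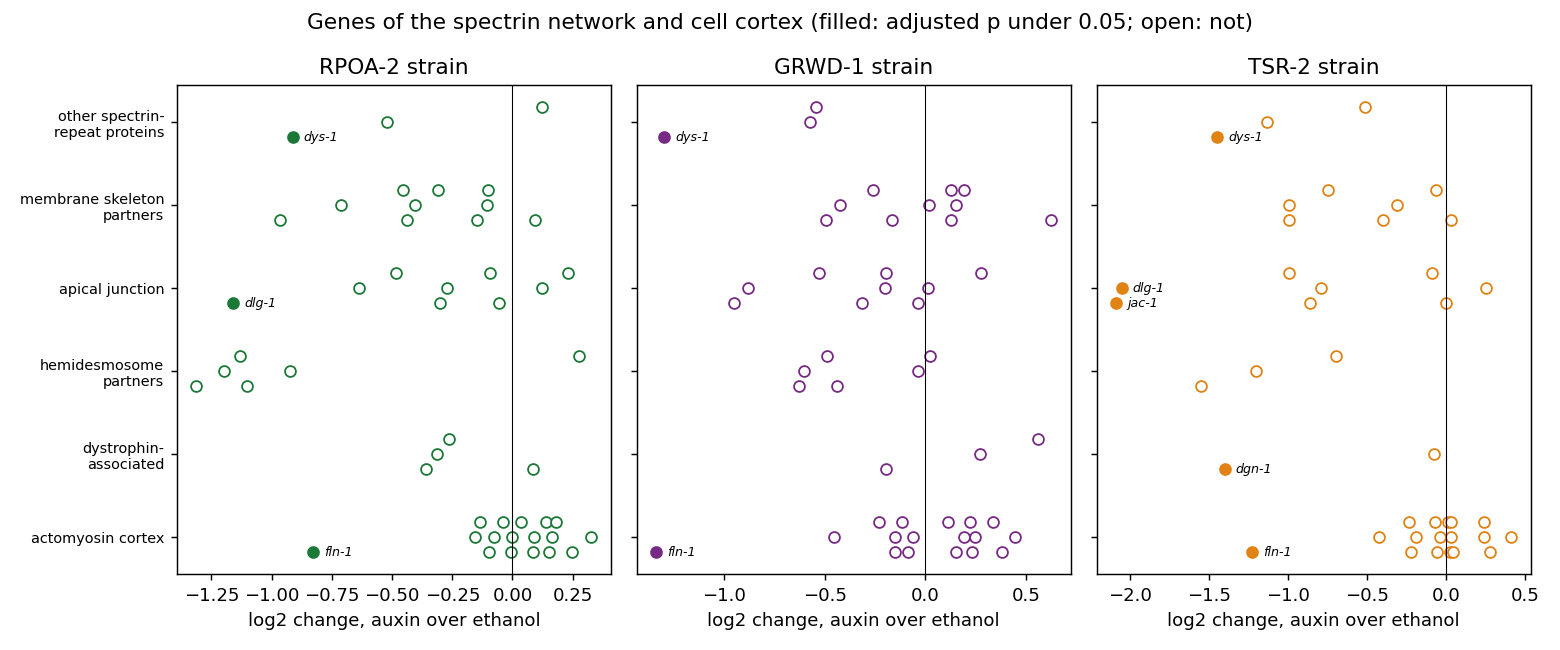
Log2 change of auxin over ethanol (horizontal axis, whose range differs between panels) for the tested genes of the 6 lists in each strain; filled points have an edgeR adjusted p under 0.05 and are named, open points do not. All named genes lie left of 0, and the genes of the actomyosin cortex other than *fln-1* lie around 0.

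Markers of other cell types were set beside these results, and their part in the results was not tested. The 5 muscle markers summed to 267.5 to 434 CPM in auxin and 214 to 1478 CPM in ethanol libraries of RPOA-2, with the highest value in ethanol replicate 2. In that same library the 4 hypodermis markers summed to 275 CPM and the hemidesmosome partners to 502 CPM. Its values of the 4 genes lay within those of the other ethanol libraries except for *unc-70*, for which it was the highest. For GRWD-1, muscle markers summed to 147 to 226 CPM in auxin and 117 to 161 CPM in ethanol libraries, and hypodermis markers to a median of 10.3 CPM in auxin and 6.20 CPM in ethanol libraries. The 4 gonadal sheath markers summed to 54.7 to 123 CPM in auxin and 90.7 to 154 CPM in ethanol libraries of RPOA-2, and to 24.9 to 63.2 CPM in auxin and 47.9 to 56.8 CPM in ethanol libraries of GRWD-1. In TSR-2 they summed to 29.5 to 43.7 CPM in auxin and 62.7 to 86.9 CPM in ethanol libraries, without overlap. Other lists were also lower with auxin there without overlap: muscle markers at 59.1 to 177 CPM in auxin and 186 to 295 CPM in ethanol libraries, intestine markers at 177 to 738 CPM in auxin and 885 to 1576 CPM in ethanol libraries, and oocyte markers at 2192 to 2416 CPM in auxin and 2636 to 2641 CPM in ethanol libraries. The lowest muscle and intestine sums came from the shallow auxin replicate 3. Auxin replicates 1 and 2 had 123 and 177 CPM for muscle and 738 and 706 CPM for intestine. Sperm markers did not overlap either, at 0 to 3.61 CPM in auxin and 8.39 to 11.9 CPM in ethanol libraries. Germ cell, neuron and hypodermis markers overlapped between the groups of TSR-2. Intestine markers summed to 523 to 17260 CPM in auxin and 1361 to 28865 CPM in ethanol libraries of RPOA-2, and to 399 to 1545 CPM in auxin and 741 to 3899 CPM in ethanol libraries of GRWD-1. Nearly all of the intestine sum came from the yolk protein genes *vit-2* and *vit-6*, with means of 5026 and 7728 CPM in RPOA-2 ethanol libraries. There *act-5* averaged 54.7, *ges-1* 4.31 and *elt-2* 1.70 CPM. Of the 4 sheath, 5 muscle, 4 intestine and 2 hypodermis markers tested in RPOA-2, 0 passed, as did 0 of the 3, 5, 3 and 1 tested in GRWD-1, while in TSR-2 the muscle marker *unc-89* passed in the lower direction. Several defining markers were near 0 throughout: the intestinal regulator *elt-2* had 0 counts in 11 of the 19 libraries and at most 5.56 CPM, the cuticle collagen *dpy-7* 0 counts in 7 and at most 3.46 CPM, and the spermatheca gene *sth-1* 0 counts in 8 and at most 1.77 CPM. The sheath regulators *lim-7* and *ceh-18* reached at most 7.74 and 9.09 CPM.

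The 4 genes share a property that may come with their choice by name. All are long: in the RPOA-2 strain 98.7% of tested genes have fewer exon bases than *spc-1*, 99.0% fewer than *unc-70*, 99.7% fewer than *sma-1* and 99.9% fewer than *vab-10*. Long genes as a class had lower changes. Those of 6 kb or more had a median log2 change of -0.25 in RPOA-2 (221 genes), -0.26 in GRWD-1 (204 genes) and -0.43 in TSR-2 (182 genes), against 0.0027, 0.046 and 0.026 for genes of 1 to 2 kb. Of the long class 6.33%, 5.39% and 13.2% passed in the lower direction, against 0.844%, 1.05% and 0.954% of genes of 1 to 2 kb. Within the long class, the number of genes with a lower log2 change than *vab-10* was 24 in RPOA-2, 1 in GRWD-1 and 12 in TSR-2. For *sma-1* it was 15, 21 and 34, for *unc-70* 49, 16 and 9, and for *spc-1* 44, 49 and 61. All 4 genes were therefore below the median of long genes in each strain, and the part of length in the result was not tested.

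Chromosome, unlike length, is not shared by the 4 genes. Genes on X, where *spc-1* lies, had a median log2 change of -0.40 in RPOA-2 (888 genes), -0.33 in GRWD-1 (663 genes) and -1.06 in TSR-2 (517 genes). In TSR-2 the *spc-1* change of -0.94 was thus less negative than the median of its chromosome. The medians of chromosome V, with *unc-70* and *sma-1*, were -0.034, -0.017 and -0.052, and those of chromosome I, with *vab-10*, were 0.029, 0.027 and 0.012. The other 3 genes therefore had changes below the median of their chromosomes in each strain.

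**Figure D5:**
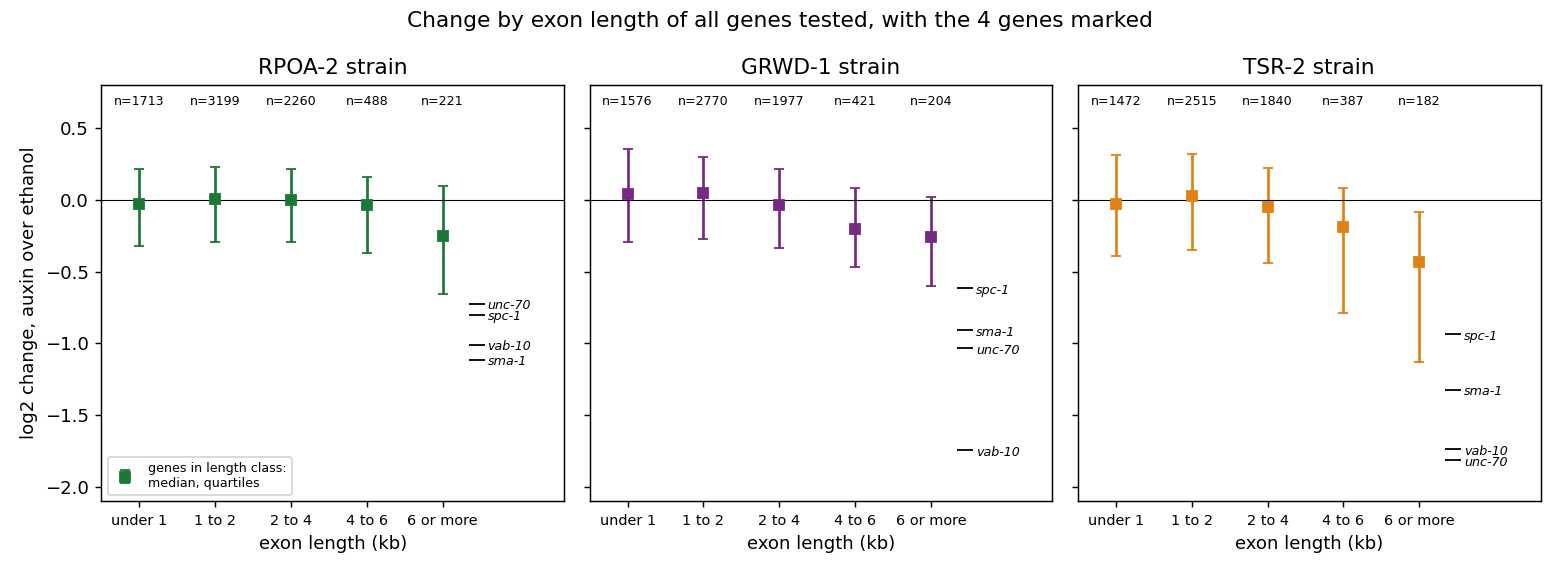
Log2 change of auxin over ethanol (vertical axis) by exon length class in kb (horizontal axis) for all genes tested in each strain; squares are medians and bars the quartiles of each class, with the number of genes above, and the black dashes to the right mark the 4 genes, all of which belong to the longest class. The class of 6 kb or more has medians of -0.25, -0.26 and -0.43, and each of the 4 genes lies below it.

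The genes whose pattern over libraries was most like each of the 4 were found by the root mean square difference of log2 CPM, each gene centred on its mean within the strain, over the 14 libraries of the RPOA-2 and GRWD-1 strains and 5660 genes. For *spc-1* they were *let-19* at 0.108 and *dpy-22* at 0.147, where the median gene was at 0.573. For *unc-70* they were *sid-3* at 0.159 and *T28C6.7* at 0.173, with *spc-1* in place 5. For *sma-1* they were *dpy-22* at 0.172 and *chd-7* at 0.226, with *spc-1* in place 4. For *vab-10* they were *sec-61.A* at 0.325 and *sma-1* at 0.338, further away than the closest genes of the spectrin chains. The median gene was also further from *vab-10*, at 0.811, against 0.652 for *unc-70* and 0.693 for *sma-1*. The alpha and beta chain genes differed by 0.191, and *vab-10* differed from *spc-1* by 0.489. These values come from the same libraries as the changes above and are a description. Several of the closest genes are in the class of 6 kb or more: *let-19* has 9278 exon bases, *dpy-22* 10867, *chd-7* 9577 and *T28C6.7* 7464. By contrast, *sid-3* has 4041 and *sec-61.A* 2135. The part of length in these likenesses was not tested.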

How the data were processed

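RNA-seq tables of 19 libraries of dissected gonads were used. The authors deposited whole-number counts per protein-coding gene, not normalized, for 14 libraries, and expected counts (fractional, also not normalized) for 17 libraries. The submitters' processing notes name Trim Galore 0.6.10, HISAT2 2.2.1, Picard, featureCounts 2.0.6 and WBcel235. The annotation and strand setting are not given in the sources used here, so reads of overlapping antisense genes may be included. All 19985 gene IDs were found in the Ensembl annotation of WBcel235, release 115, which gave names, positions and exon lengths. The fractional table alone holds the TSR-2 libraries, so its protein-coding genes, rounded to whole numbers, replaced the count table for TSR-2 and for interactions with it, where RPOA-2 enters with replicates 1 to 3. Fractional counts of the 4 genes were 1.00 to 1.03 times the whole-number counts, summed over 12 libraries. The number of sample columns left unused was 0, as was the number of identical libraries.

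Tests used edgeR 4.0.16 (R 4.3.3) with filterByExpr, TMM, quasi-likelihood F test, no covariate, Benjamini-Hochberg adjustment over all genes tested, adjusted p under 0.05. SE was derived from the log2 change and F. CPM use TMM-scaled totals. Interactions were contrasts with 1 coefficient per group. The test was also run on simulated data. DESeq2 1.42.0 and the other alternatives are given at the end. The labels do not say that replicates came from separate cultures, so p-values measure the spread between these samples. Limits from 3 counts cover counting error only, since PCR reads were not counted by molecule.

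Same-numbered auxin and ethanol libraries deviated together from their group means across genes in RPOA-2 (correlations 0.179 to 0.297, 4 pairs) and GRWD-1 (0.241 to 0.463, 3 pairs), and were treated as pairs in the alternative with a block. The 4 genes, lists and tests were chosen with earlier results of these data known. Named besides the 4 genes were list genes with an adjusted p under 0.05 in any strain, the 2 genes closest in pattern to each (mean of at least 10 CPM, prior count 2) and a few list genes and markers, chosen as examples after their values were seen. Of 52 listed network genes 51 were found, *ifa-2* not being matched by name.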

Additional observations from a re-analysis of the deposited data

Results flagged for a closer look

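In 44 groups of 4 libraries, of the 4 genes, their ratios and the summed lists, 6 values lay far from the other libraries of their group, where chance marks about 1 in 20 groups. All are in the RPOA-2 strain, the only one with 4 libraries a group. In ethanol replicate 4, *vab-10* had 1368 CPM, above 1002 to 1044 CPM in the other 3. In auxin replicate 4 the ratio of *spc-1* to the sum of *unc-70* and *sma-1* was 0.416, below the other auxin libraries. In that library the intestine markers, whose sum is mostly *vit-2* and *vit-6*, came to 17260 CPM, above the other auxin libraries. Replicate 4 belongs to another series of library numbers than replicates 1 to 3. In ethanol replicate 2 the markers of muscle summed to 1478 CPM, those of hypodermis to 275 CPM and the hemidesmosome partners to 502 CPM, all above the other ethanol libraries.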

How the results depend on the processing

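The log2 changes of the 4 genes were below 0 in all 152 values over the alternatives, between -2.15 and -0.32, but their calls depended on the setting. In RPOA-2, 3 of the 4 genes passed, against 0 with fractional counts, 1 with replicates 1 to 3 alone and 0 to 2 with a library left out. In GRWD-1, 2 passed, against 4 with the replicate block, 1 with fractional counts and 1 to 2 with a library left out. In TSR-2, 3 passed, against 1 with DESeq2, 1 with the replicate block and 1 to 3 with a library left out. Of the network genes, 3 passed in RPOA-2, against 7 with no low-count filter, 0 with fractional counts, 0 with replicates 1 to 3 alone and 0 to 2 with a library left out. In GRWD-1, 2 passed, against 1 with total counts, 7 with the replicate block, 1 with fractional counts and 1 with any library left out. In TSR-2, 5 passed, against 1 with DESeq2, 3 with total counts, 0 with the replicate block and 0 to 5 with a library left out. The cause was not tested, beyond the fewer samples of the smaller fits. The block kept 3 of the 4 genes in RPOA-2 and 2 network genes. Same-numbered TSR-2 libraries had a mean correlation of -0.12. This cannot decide whether they pair, since 2 ethanol libraries always deviate from their mean by equal and opposite amounts. Leaving out a TSR-2 ethanol library leaves 1, assumed to vary like the others. The 4 genes passed in no interaction or ethanol contrast under the alternatives run for those contrasts. The replicate block was used for auxin against ethanol only, so the interactions were not tested with pairs.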
